A study of Homo sapiens with 3 samples.

Results

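The transcript levels of 14117 protein-coding genes were profiled in 1 library, the control P-Enter of the prostate carcinoma line DU145. These were all genes of the protein-coding type among the 23379 genes listed in the table, and each was put into 1 of 4 classes by its FPKM (read number divided by gene length in kilobases and by library size): abundant at 100 or more, moderate from 10 to under 100, low from 1 to under 10 and near 0 under 1. DU145 is an established human line grown from a brain metastasis of a prostate carcinoma. The study sequenced 3 libraries of these cells: P-Enter, a negative control; WT, in which normal BRAF was overexpressed; and L597R, made after transfection of plasmids for that BRAF mutant. Only P-Enter was used here. What the control itself carries, the time of harvest and whether the cells were 1 clone or a pool are not given in the sources used here, and the cells keep their own BRAF gene. With 1 library there is no replicate and no test, so intervals are exact Poisson 95% intervals of the reads and cover counting error only.

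A cancer cell's messenger RNA pool is dominated by a small set of genes for making protein, building the cytoskeleton and producing energy, while most regulators are present at far lower levels. Prostate epithelium has luminal cells, which respond to androgen and secrete, and basal cells, which anchor the layer to the basement membrane. DU145 cells are known to grow without androgen, and are used as a model of castration-resistant carcinoma.

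The 360 abundant genes were 2.55% of the protein-coding genes listed and held 46.3% of their summed FPKM, from 31.2% of their reads. The moderate class had 3710 genes (26.3%) with 43.3% of the FPKM. In the low class were 5278 genes (37.4%) with 9.94%, and near 0 were 4769 genes (33.8%) with 0.416%. Thus 28.8% of the listed genes lay at 10 FPKM or above and 66.2% at 1 or above, and these shares are the background for every list below. They hold for listed genes only: 5834 of the 19951 protein-coding genes of the GENCODE 29 annotation are not listed. No listed gene was at 0 in all 3 libraries. The median over all listed protein-coding genes was 3.43 FPKM. Of the genes near 0, 1007 were listed at 0, 1602 were above 0 and under 0.1, and 2160 were from 0.1 to under 1. A low FPKM did not always mean few reads: 1677 of the genes near 0 had 10 reads or more, and 155 had 100 or more. The library had 13294004 counted reads, so 1 read equals 0.0752 CPM (counts scaled to library size).

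The class bounds cut a continuous distribution. ACTR2, an actin-nucleating subunit, lay just inside the abundant class at 100.1 FPKM (95% interval 97.5 to 103), and AURKA, a mitotic kinase, just outside it at 99.8 (96.7 to 103). RAB22A was at 10.001 and NMT2 at 9.999, on either side of the moderate bound. CAPS2 was at 1.001 and SMDT1 at 0.999, on either side of the low bound. Counting intervals crossed the bound at 100 for 27 genes, at 10 for 449 and at 1 for 678, so the class of these genes is not settled by the reads.

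**Figure D1:**
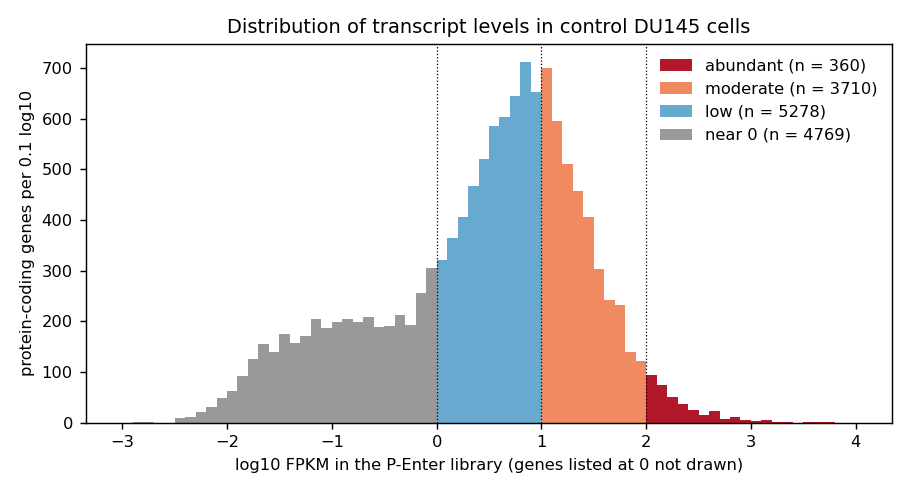
Number of protein-coding genes (vertical axis) by log10 FPKM (horizontal axis, steps of 0.1) in the P-Enter library, coloured by class, with dotted lines at 1, 10 and 100 FPKM. The 1007 genes listed at 0 are not drawn; the levels form a broad hump around the bound between the low and the moderate class, with a long tail to the left and 360 genes to the right of 100 FPKM.

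The labels' carcinoma line was checked against markers of epithelium, and the check was only partly met. The epithelial cadherin CDH1 (chr16:68737225-68835548, GRCh38), which joins neighbouring epithelial cells, had 1 read in the whole library (0.0124 FPKM, 0.000313 to 0.069). Its main transcript shares no exon base with another gene on the same strand. Of 21 junction and adhesion genes in the epithelial list, 14 were listed, with a median of 0.887 FPKM: 0 abundant, 1 moderate, 6 low and 7 near 0. CLDN1, a tight junction claudin, was the highest at 79.8 FPKM, and the desmosomal and junctional genes PKP2 (7.09), JUP (4.64), DSG2 (4.604) and TJP1 (3.23) were low. CLDN7 (0.0302), RAB25 (0.0891) and ESRP2 (0.13), the last a splicing regulator of epithelial transcripts, were near 0. EPCAM, DSP, CLDN3, ESRP1, GRHL2, OVOL1 and ST14 are not listed in the table and were not analysed here. These data go against an epithelial junction profile with CDH1, and the identity of the cells rests on the labels.

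Keratins, the intermediate filament proteins of epithelium, gave a mixed picture. KRT18 was at 34.3 FPKM, KRT7 at 28.9 and KRT80 at 18.8, all moderate. KRT8, the usual partner of KRT18, was at 0.623 from 57 reads, and KRT19 at 0.0966. The pseudogene KRT8P12 had 113 reads (4.15 FPKM), and its part in the value of KRT8 was not tested. Among the keratins of basal and stratified layers, KRT10 (4.42) and KRT15 (2.13) were low, and KRT16, KRT17, KRT81 and KRT14 were near 0. The 11 keratins of the lists had a median of 0.623 FPKM and a summed level of 90.3.

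Of 18 genes in the luminal list, which covers the androgen axis and secretion, 7 were listed and summed to 24.6 FPKM. The only moderate member, and the largest part of that sum, was NR3C1 at 12.8 FPKM. It is the glucocorticoid receptor, which is not specific to luminal cells. STEAP1 (4.68), SLC45A3 (1.54) and STEAP2 (1.02) were low. FOXA1, a pioneer factor for steroid receptors, was at 0.835, and TRPM8 was listed at 0. The secreted kallikrein KLK3 is not listed in the table and was not analysed here. The 8 listed of 10 basal markers had a median of 5.42 FPKM, beside 1.54 for the luminal list. Their sum of 133 FPKM came mostly from the hyaluronan receptor CD44 (76.7). The laminin chain LAMB3 (30.6) and the hemidesmosomal integrin ITGB4 (12.8) followed. Thus 3 of 8 lay at 10 FPKM or above, beside 28.8% of all listed genes, so the list as a whole was not clearly high. KRT14 (0.0667) and NGFR (0.0182) were the lowest of them.

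Mesenchymal genes ranged widely, with a summed level of 155 FPKM over 11 listed of 15. The filament protein VIM was abundant at 130 FPKM (127 to 133). N-cadherin, CDH2, was at 8.94, fibronectin, FN1, at 6.60 and the transcription repressor ZEB1 at 2.72; ZEB2 (1.12) and SNAI1 (1.01) stood at the low bound and SNAI2 (0.298) under it. Of VIM's main transcript, 46.0% of exon bases also lie in a gene on the opposite strand; whether the counting used strand is not given in the sources used here.

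Most markers of other cell types were at or near 0, apart from ESAM and ENO2. All 8 listed fibroblast markers were under 1 FPKM (sum 0.282, highest PDGFRA at 0.134), as were all 8 leukocyte markers (sum 0.446, highest CD79A at 0.224) and the 3 erythroid and muscle markers (sum 0.0699). PTPRC, the pan-leukocyte phosphatase, was at 0.0246. Of 6 endothelial markers 5 were near 0, PECAM1 at 0.0972 and VWF at 0.00724, while ESAM, an immunoglobulin-type adhesion molecule, was at 64.4 FPKM (61.9 to 66.95) from 2499 reads. Neuroendocrine markers were near 0 in 4 of 5 genes listed, with SYP at 0.892, and the neuronal enolase ENO2 was low at 7.87.

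**Figure D2:**
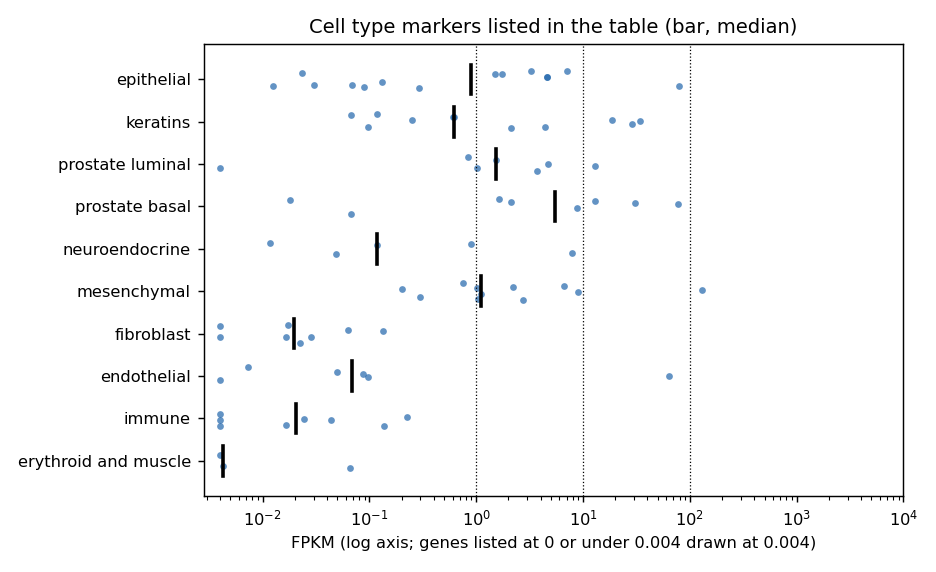
FPKM (horizontal log axis) of the listed genes in 10 marker lists (vertical axis), 1 point a gene and a black bar at each list's median; genes listed at 0 or under 0.004 are drawn at 0.004. Fibroblast, leukocyte, and erythroid and muscle genes all lie left of 1 FPKM, ESAM stands alone among the endothelial genes, and epithelial genes spread from 0.0124 to 79.8.

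The 25 highest genes held 16.9% of the protein-coding FPKM and 8.35% of the reads, and 456 genes were needed for 50% of the FPKM. First came FTL (chr19:48965301-48966878, GRCh38), the light chain of the iron store ferritin, at 6003 FPKM (5958 to 6048), which was 2.54% of the total. The actin-sequestering peptide gene TMSB10 (chr2:84905625-84906675) was at 3410 FPKM, and the translation elongation factor EEF1A1 at 1687. Of the 25 genes, 9 were encoded in mitochondrial DNA and 4 were cytosolic ribosomal protein genes. The rest included the metal-binding MT2A (1570), the actins ACTB (1556) and ACTG1 (1196), the glycolytic enzymes GAPDH (1553) and ENO1 (924), the chaperones HSP90AB1 (1252) and HSPA8 (771), the elongation factor EEF2 (1081) and the galactoside-binding lectin LGALS1 (792).

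Gene length enters FPKM directly, and the order at the top depends on it. The lengths worked out from the deposited values equalled the annotated length of all exons merged for 26.3% of genes. They lay within 10% of it for 87.2%, and for EEF1A1 the length was 10063 bases beside 5948 annotated. The median ratio of merged exon length to the length of the transcript with the longest coding sequence was 1.45. With that transcript's length, 14 of the 25 genes were again among the 25 highest. MT2A then stood at 4939 FPKM in place of 1570, and EEF1A1 at 3822 in place of 1687, while FTL hardly moved, at 5955.

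**Figure D3:**
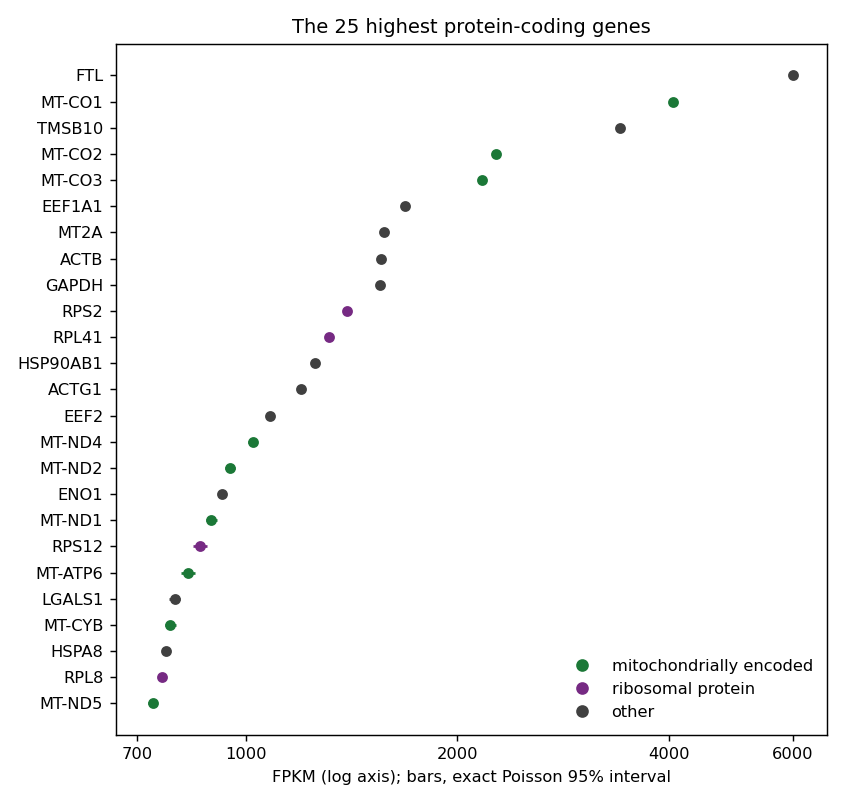
FPKM (horizontal log axis) of the 25 highest protein-coding genes (vertical axis) in the P-Enter library, with exact Poisson 95% intervals that are mostly narrower than the points. Colours mark genes of mitochondrial DNA, ribosomal protein genes and others; FTL is highest at 6003 and MT-ND5 last at 737.

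Ribosomal protein genes had the highest summed FPKM of the 44 lists. All 79 cytosolic ribosomal protein genes were listed, with 57 abundant, 14 moderate, 5 low and 3 near 0 and a median of 222 FPKM, beside 3.43 over all genes. They held 9.14% of the FPKM. RPS2 (1391), RPL41 (1313), RPS12 (860), RPL8 (760), RPLP0 (646) and RPL35 (639) led both subunits. At the other end were RPL26 (4.56), RPS15A (2.70), RPL17 (1.23), RPS10 (0.915) and RPL36A (0.683), although the ribosome holds its proteins in equal number. Of 35 translation factors listed, 10 were abundant and 20 moderate, with a median of 50.04 FPKM. EIF4G2 (206), PABPC1 (178), the scaffold EIF4G1 (169) and EIF6 (158) led the initiation factors, the cap-binding EIF4E was at 19.96, and the helicase EIF4A1 was at 0.839 from 58 reads. Its pseudogene EIF4A1P10 was at 36.9 FPKM and had more reads than the gene; their part in the value of EIF4A1 was not tested.

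Genes of the translation machinery are known for a start site that lies in a run of pyrimidines, through which growth signals control their translation. The start windows of 4 ribosomal protein genes and both leading elongation factors are shown for this feature, with GAPDH, also abundant, beside them. Each line gives 40 bases of the given strand, from 20 before the annotated start to 19 after its first base, from RefSeq promoters on GRCh38.p14. Capitals mark a C followed by at least 4 bases that are each C or T, where that C lies within 5 bases of the start. The windows are RPL41 at chr12:56116613-56116652 (plus strand), RPS12 at chr6:132814549-132814588 (plus), RPLP0 at chr12:120201092-120201131 (minus), RPL35 at chr9:124861938-124861977 (minus), EEF1A1 at chr6:73521013-73521052 (minus), EEF2 at chr19:3985444-3985483 (minus) and GAPDH at chr12:6535244-6535283 (plus).
RPL41: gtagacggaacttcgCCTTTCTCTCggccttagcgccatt
RPS12: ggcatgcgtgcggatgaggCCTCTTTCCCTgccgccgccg
RPLP0: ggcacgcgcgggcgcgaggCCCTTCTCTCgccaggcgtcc
RPL35: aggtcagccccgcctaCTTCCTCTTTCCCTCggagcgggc
EEF1A1: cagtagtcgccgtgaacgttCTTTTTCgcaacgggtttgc
EEF2: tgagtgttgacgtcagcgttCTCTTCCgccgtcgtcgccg
GAPDH: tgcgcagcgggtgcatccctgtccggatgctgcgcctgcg

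Such a tract was in 51 of 63 matched ribosomal protein promoters (81.0%) and in 13 of 25 of the translation factors (52%). It was in 21.1% of all 35116 promoters of the table and in 22.5% of the 11346 listed protein-coding genes matched. By class it was in 33.5% of abundant, 22.4% of moderate, 22.4% of low and 21.7% of near 0 genes. Without the ribosomal and translation factor genes, the share among 230 abundant genes was 23.0%, close to that of the other classes. The tract did not separate high from low ribosomal protein genes: 80.4% of 46 at 100 FPKM or more and 82.4% of 17 under it had one.

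Iron and metal handling supplied the highest gene and MT2A. FTH1, the heavy chain that assembles with FTL into ferritin, was at 109 FPKM (105 to 113), and 71.6% of its main transcript lies in exons of a gene on the opposite strand. The transferrin receptor TFRC, which takes up iron, was at 61.4, the iron sensors ACO1 at 18.002 and IREB2 at 4.91, and the importer SLC11A2 at 4.53. Metallothioneins are small cysteine-rich proteins that bind zinc and copper. MT2A was at 1570 FPKM (1554 to 1586) and MT1E at 431 (420 to 442), whereas MT1X was at 0.261 from 6 reads, with 36.7% of its transcript shared with another gene on the same strand. The metal-sensing factor MTF1 was at 5.26.

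The promoters of MT2A and MT1X are shown because these neighbours differ so widely in level and both carry the core of the metal response element that MTF1 binds. Each line runs from 200 bases before the start to 4 after its first base, from RefSeq on GRCh38.p14, plus strand, with MT2A at chr16:56608384-56608588 and MT1X at chr16:56682270-56682474. Capitals mark TGCACNC or TGCGCNC on either strand.
MT2A: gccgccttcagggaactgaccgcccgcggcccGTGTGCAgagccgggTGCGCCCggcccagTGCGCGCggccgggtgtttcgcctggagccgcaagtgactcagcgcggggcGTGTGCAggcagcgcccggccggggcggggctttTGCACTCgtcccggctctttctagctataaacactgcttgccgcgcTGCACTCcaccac
MT1X: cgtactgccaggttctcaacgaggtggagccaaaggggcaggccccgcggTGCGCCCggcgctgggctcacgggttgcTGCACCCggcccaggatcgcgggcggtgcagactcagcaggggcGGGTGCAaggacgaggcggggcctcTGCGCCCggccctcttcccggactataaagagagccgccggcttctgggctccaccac

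The MT2A window held 6 such matches and that of MT1X 4. Of all promoters in the table, which are 300 bases long, 29.6% held at least 1. Among the listed protein-coding genes the share was 38.0%. A match describes the letters and is not evidence of binding.

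Targets of NRF2, the factor that answers oxidative stress, were mostly high. Of 28 listed, 10 were abundant, 13 moderate, 2 low and 3 near 0, with a median of 65.5 FPKM. Thioredoxin, TXN (460), the peroxide-removing PRDX1 (433), the quinone reductase NQO1 (291), PRDX5 (272), TXNRD1 (207) and the haem oxygenase HMOX1 (193) led. The rate-limiting enzyme of glutathione synthesis, GCLC, was low at 2.75, GPX2 (0.0502) and AKR1B10 (0.0424) were near 0, and SRXN1 was listed at 0, with 85.0% same-strand overlap.

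Respiratory chain genes of mitochondrial DNA and of the nucleus lay far apart. Of 13 genes of mitochondrial DNA, 12 were abundant, with a median of 826 FPKM, and they held 6.43% of the protein-coding FPKM from 1.64% of the reads. The cytochrome oxidase subunits MT-CO1 (4057), MT-CO2 (2271) and MT-CO3 (2165.5) were the highest. MT-ND6, the only one on the light strand, was at 338, and MT-ATP8 was low at 7.63 from 21 reads, with 22.2% of its 207 bases shared with MT-ATP6. The 75 nuclear subunits had a median of 15.5 FPKM, with 10 abundant, 34 moderate, 23 low and 8 near 0. ATP5F1B, the catalytic subunit of ATP synthase, was at 551, NDUFS5 at 360 and UQCRH at 173. Complex I had a median of 8.11 FPKM over 36 subunits, and complexes II to V had 39.6 over 39. This gap depended on gene length: with annotated exon lengths the medians were 13.4 and 39.3, and with the length of the longest-coding transcript 49.2 and 63.6.

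Glycolytic enzymes showed 6 abundant genes among the 18 from glucose to pyruvate, and their levels differed step by step. GAPDH (1553), ENO1 (924), the pyruvate kinase PKM (467), TPI1 (446), PGAM1 (311) and PGK1 (103) catalyse the steps from the triose phosphates to pyruvate. Lactate dehydrogenase LDHA was at 53.3 FPKM and the lactate exporter SLC16A3 at 32.1. ALDOA, the main aldolase of most tissues, was at 0.413 from 21 reads, and 88.4% of its transcript lies in exons of another gene on the same strand. LDHB was at 0.227 with 64.6% overlap. The tricarboxylic acid cycle was more even, with 14 of 19 genes moderate and 5 low, from SUCLA2 at 4.17 to MDH2 at 81.3.

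Cytoskeletal genes were high as a group. Of 36 actin genes and partners, 13 were abundant and 18 moderate, with a median of 63.0 FPKM. Behind TMSB10 and the actins came profilin, PFN1 (506), TMSB4X (469), the membrane linker EZR (348) and the motor MYH9 (310). ACTN4 was at 4.41, ARPC1B at 0.472 with 75.3% overlap, and MYL9 was listed at 0 with none. Among 12 tubulins TUBB4B was far above the others at 638 FPKM, with TUBA1C (122), TUBB6 (115), TUBA1B (103) and TUBB (95.7) next; these copies are similar in sequence, so the split of reads among them is uncertain. The neuronal TUBB3 was at 0.811.

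Cell surface and matrix genes fell into a few high members and many near 0. Calcium-binding S100A6 (588 FPKM), S100A11 (418), S100A10 (271) and S100A16 (142) were abundant, while 6 of the 12 listed S100 genes were near 0 and S100P was listed at 0. The membrane-binding annexins ANXA5 (171) and ANXA2 (154) were abundant and ANXA3, ANXA8 and ANXA13 listed at 0. ITGA3 (117), a laminin-binding integrin chain, was the only abundant integrin of 19; its partner ITGB1 was at 76.6, ITGB5 at 35.4, ITGA6 at 21.8 and ITGA5 at 10.5, and ITGB3 (0.0712) and ITGB8 (0.0695) were near 0. Laminin chains LAMB2 (35.6), LAMC1 (31.8), LAMB3 (30.6) and LAMA5 (11.3) were moderate. LAMA3, which joins LAMB3 in a basement membrane trimer, was at 0.421. Of 12 collagens, 10 were near 0, and COL18A1 (24.2) was the highest.

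In the plasminogen system the urokinase activator PLAU was at 103 FPKM and its receptor PLAUR at 13.6; PLAT (0.562) and SERPINB2 (0.467) were near 0. Among 11 metalloproteinases and inhibitors, TIMP1 (77.6), TIMP2 (33.0) and the membrane-bound MMP14 (21.1) were moderate, and MMP2 (0.0799) and MMP1 (0.0549) near 0. Of 17 targets of TGF-beta and YAP, 4 were abundant and 6 moderate: the matrix protein CCN1 was at 407, AXL at 155, ANKRD1 at 111, CRIM1 at 93.6 and CCN2 at 77.0.

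The RAS-MAPK cascade, to which BRAF belongs, was read in order from ligand to output. All 46 listed members had a median of 17.2 FPKM, with 7 abundant, 22 moderate, 14 low and 3 near 0. Of the abundant ones, 3 were output genes, 1 was the adaptor SHC1, and 3 were in the group of MEK, ERK and scaffolds. That group was led by the 14-3-3 gene YWHAQ (226). Of 10 RAS and RAF genes 0 were abundant, as were 0 of 40 genes with MAP kinase symbols. The ligands of EGFR were led by HBEGF at 20.4, followed by EREG (7.99), TGFA (7.83) and AREG (4.90). EGFR itself was moderate at 34.1 FPKM (33.2 to 34.98), ERBB2 was low at 8.44, and ERBB3 (0.379) and ERBB4 (0.0983) near 0. Above them stood the receptors AXL (155) and EPHA2 (151; chr1:16124337-16156087), and MET was at 18.5, while ALK and KDR were listed at 0. The adaptor SHC1 was at 194, GRB2 at 45.9, and the exchange factors SOS2 and SOS1 at 3.31 and 2.40.

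Among the small GTPases NRAS (84.8 FPKM) was above RRAS (26.2) and HRAS (16.002). BRAF (chr7:140719327-140924928, minus strand), the kinase the study altered, was low in its control at 1.65 FPKM (1.51 to 1.80), from 514 reads. Its relative ARAF was moderate at 18.998 FPKM (17.8 to 20.3), and the intervals did not overlap. The merged exon length of BRAF is 23433 bases, and that of its longest-coding transcript 2549. On that transcript's length BRAF was at 15.2 FPKM and ARAF at 25.9, in the same order. Downstream of them MAP2K2 was at 62.8, MAPK3 at 21.01 and MAP2K1 at 18.5.

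The output genes of the pathway were uneven. FOSL1 (266 FPKM, 260 to 273), an AP-1 subunit, cyclin D1, CCND1 (185), and EPHA2 were abundant, and the phosphatase DUSP5 was at 89.6. The feedback genes SPRY4 (22.7) and SPRY2 (19.5) were moderate, whereas DUSP6 (5.48), ETV4 (3.23) and IER3 (5.07) were low and DUSP4 was at 0.217. Output genes had a median of 16.4 FPKM over 12 listed.

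Transcription factors had a median of 10.3 FPKM over 69 genes, beside 3.43 over all listed genes and 222 over ribosomal protein genes. Of the 69, 5 were abundant, 31 moderate, 25 low and 8 near 0. Thus 36 lay at 10 FPKM or above, where 28.8% of all listed genes lay. HMGA1 (460), an architectural protein, YBX1 (419), ID1 (216), FOSL1 (266) and ATF4 (132) were the abundant ones. Among AP-1 genes JUN was at 76.8 FPKM, FOSL2 at 18.3 and JUND at 17.4, while FOS (0.118) and FOSB (0.0948) were near 0. ETS1 (65.0) led the ETS family, above ELK3 (29.6) and ELK1 (25.5), and the cell cycle factors MYBL2 and FOXM1 were at 77.0 and 47.6. No nuclear receptor of 23 was abundant: NR1H2 (22.6), NR2F6 (17.4), NR2F1 (15.9) and ESRRA (14.8) led, and the oestrogen receptors ESR1 (0.0658) and ESR2 (0.0378) were near 0.

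Proliferation genes were mostly at 10 FPKM or above. Of 51 cell cycle genes, 47 were so (9 abundant, 38 moderate), with a median of 45.8. Cyclin B1, CCNB1, was at 279 FPKM (273 to 285), the spindle protein TPX2 at 200, the ubiquitin-conjugating UBE2C at 193 and the anaphase activator CDC20 at 190. Replication was led by the sliding clamp PCNA (180), TK1 (151), the flap nuclease FEN1 (137) and MCM7 (136). CDK4 (66.0) stood above CDK6 (6.34), and CCNE1 (10.1) above CCNE2 (2.16). NUSAP1, a spindle protein, was the only member near 0, at 0.0625 from 3 reads, with 88.8% same-strand overlap.

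Promoters of mitotic genes are known for CCAAT boxes, which the factor NF-Y binds. Of 15 matched promoters of the mitosis list 14 (93.3%) had CCAAT on either strand within the 300 bases, beside 34.6% of all promoters and 44.7% of abundant genes. CCNB1 (chr5:69167050-69167124) and CDC20 (chr1:43358881-43358955) are shown from 100 to 26 bases before the start, both on the plus strand, with CCAAT in capitals (RefSeq, GRCh38.p14).
CCNB1: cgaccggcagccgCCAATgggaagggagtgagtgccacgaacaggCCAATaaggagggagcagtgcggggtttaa
CDC20: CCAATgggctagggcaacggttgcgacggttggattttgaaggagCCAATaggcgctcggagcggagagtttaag

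Each window held 2 matches, and in both the nearer one began 55 bases before the start. TPX2 and UBE2C were not matched.

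Inhibitors of growth were present at lower levels, with a median of 6.61 FPKM over 23 tumour suppressor and inhibitor genes: 0 abundant, 7 moderate, 16 low and 0 near 0. NF2 (39.3), CDKN2C (19.04) and CDKN1A (16.4) led. RB1, known to be mutated in the line, was at 11.97 FPKM. ATG5, an autophagy gene known to be defective in DU145, was at 7.06. A level of transcript says nothing of the protein.

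Histone genes split by type. Replication-independent H2AX (191 FPKM), H2AZ1 (156) and H3-3B (107) were abundant, and all 8 genes were above 10. The 45 listed replication-dependent genes had a median of 1.08 FPKM, with 4 moderate, 19 low and 22 near 0, led by H2BC12 (66.7) and H1-2 (43.6). Their transcripts lack a poly(A) tail, and the library kit was made for mRNA; the part of this in their values was not tested.

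Chaperones had a median of 82.97 FPKM over 43 genes, 19 of them abundant. In the cytosol HSP90AA1 (364) followed HSP90AB1 and HSPA8, and in the endoplasmic reticulum the calcium-binding CALR (633) led, above PDIA4 (226) and HSPA5 (206). Mitochondrial HSPD1 (115) and HSPA9 (111) were close, while HSPE1, the co-chaperonin of HSPD1, was at 2.35 with 20.2% same-strand and 29.6% opposite-strand overlap. HSPA1A, which has a near-identical neighbour copy, was listed at 0.

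Subunits that assemble in fixed ratios gave a view of how even the measured levels were. The 8 subunits of the CCT chaperonin, which folds actin and tubulin, lay from 82.97 FPKM (TCP1) to 251 (CCT6A), 3.02-fold apart, and the 6 subunits of the MCM2-7 helicase from 38.6 (MCM6) to 136 (MCM7), 3.52-fold apart. The 14 subunits of the proteasome core lay from 0.00898 (PSMA2, 1 read) to 349 (PSMA7). Without the 3 whose transcript overlaps another gene by 50% or more, they lay from 4.25 (PSMB3) to 349, 82.1-fold apart. The regulatory cap was led by PSMC3 (221) and PSMD2 (184), with a median of 33.4 over 17 genes.

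Splicing and nucleolar genes were all at 1 FPKM or above. The 43 RNA-binding and nuclear genes had 17 abundant, 22 moderate and 4 low, with a median of 69.7. PTMA (480), the transport GTPase RAN (288), NPM1 (253) and HNRNPAB (233.9) led, and HNRNPL (1.26), HNRNPR (2.07) and HNRNPH1 (8.03) were the lowest.

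Lipid synthesis genes were all above 1 FPKM, with a median of 24.0 FPKM over 29 genes. Of these, 3 were abundant, among them the desaturase SCD (122) and ACLY (103), which makes acetyl-CoA from citrate. The fatty acid synthase FASN was at 86.7. CYP51A1 (4.09), FDFT1 (4.36) and FADS2 (2.29) were low. Amino acid response genes were mixed: ATF4 (132), SLC7A5 (98.9), SLC3A2 (84.6) and PSAT1 (70.5) led, while the asparagine synthetase ASNS was at 0.169, with 84.3% same-strand overlap.

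Death and recycling genes were moderate at most. In the BCL2 family BAX (48.0), MCL1 (44.8) and BCL2L1 (41.7) were close together, BAK1 was at 25.1, and BIK and BCL2A1 were listed at 0. The initiator caspase CASP8 was at 10.6. Autophagy had 13 moderate and 8 low genes of 22, led by LAMP1 (51.2) and MAP1LC3B (42.0), and GABARAP was listed at 0 with 42.3% same-strand overlap.

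Immune genes had 26 of 58 near 0 and a median of 1.33 FPKM. IFITM3 (120) and IFITM2 (111) were abundant and ISG15 was at 21.6, while MX1 (0.0418), OAS1 (0.0751) and IFI44L (0.00648) were near 0 and IFI27 was listed at 0. In antigen presentation B2M was at 24.4 and HLA-E at 18.6, but HLA-B was listed at 0. HLA class I genes are highly variable and alike, so reads of these copies may be assigned with error. LIF (28.3) was the highest cytokine of the list and IL6 was at 0.0727. The surface proteins CD63 (190), CD44 (76.7) and CD151 (66.6) were high, and the checkpoint ligands CD274 (0.751) and PDCD1LG2 (0.247) near 0.

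Of 14 listed genes normally kept to germ cells or the embryo, 8 were near 0, 3 low and 3 moderate. MAGEA6 (48.5 FPKM) and MAGEA3 (45.4) were the highest, and 9 of 19 genes with MAGE symbols were at 1 FPKM or above. The copies MAGEA6 and MAGEA3 are nearly identical, so the split between them is uncertain. IGF2BP2, an RNA-binding protein of embryonic tissue, was at 22.7. Of 20 hormone and secreted genes of other tissues, 5 were listed, and 4 of these were near 0.

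**Figure D4:**
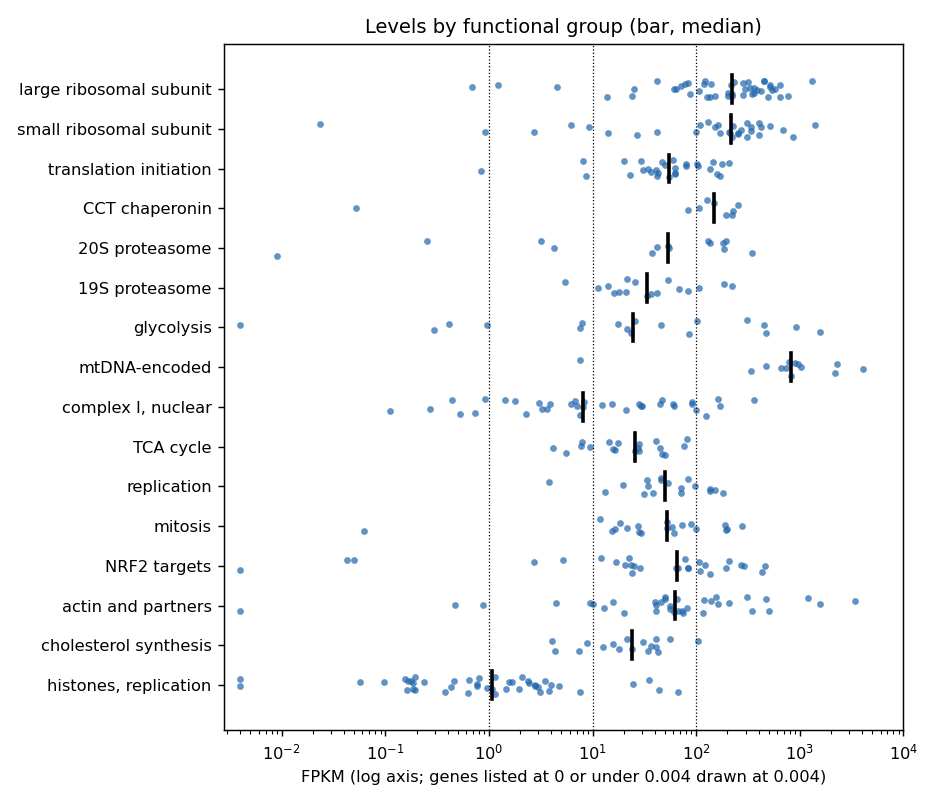
FPKM (horizontal log axis) of each gene in 16 functional groups (vertical axis), 1 point a gene and a black bar at the median; genes listed at 0 or under 0.004 are drawn at 0.004. Most ribosomal (57 of 79), CCT (7 of 9) and mitochondrial DNA (12 of 13) genes lie above 100 FPKM, 8 of the 79 ribosomal genes lie under 10, and replication-dependent histones centre on 1.08.

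Gene families grouped by symbol ranged from mostly moderate to all near 0. The 77 mitochondrial ribosomal proteins had a median of 19.4 FPKM, with 56 moderate, led by MRPL41 (193). The 35 aminoacyl-tRNA synthetases had a median of 16.7 and none near 0, from PARS2 at 2.75 to KARS1 at 142. Zinc finger genes with ZNF symbols were mostly low or near 0 (250 and 189 of 463; median 1.36), and ZNF185 was the highest at 48.9. Of 265 solute carriers 3 were abundant, and the mitochondrial ADP/ATP carrier SLC25A6 led at 264. Potassium channels were near 0 in 40 of 43 genes, and KCNN4, a calcium-activated channel, stood apart at 57.3. Olfactory receptors (12 of 12), collagens (29 of 33) and protocadherins (41 of 45) were near 0. Of 30 HOX genes 17 were near 0 and HOXB7 was the only moderate member, at 16.3. No cytochrome P450 gene of 23 reached 10; CYP2R1, which activates vitamin D, was the highest at 4.79.

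Low values in the core machinery lists went with overlap between genes. These lists are not limited to subunits that every cell needs. The chaperonin list held 9 genes, 1 of them near 0 at 0.0527, while the 8 CCT subunits lay at 82.97 or above. Of 213 listed genes of the ribosome, proteasome, chaperonin, respiratory chain and acid cycle, 83 were abundant, 80 moderate, 36 low and 14 near 0. The share with any exon base of the main transcript in another gene's exons on the same strand was 4.82%, 7.50%, 30.6% and 71.4% in these classes. The 9 genes with 50% or more had a median of 0.527 FPKM and a highest value of 3.18 (PSMA1). The 22 with less had 6.91, and the 182 with none had 81.4. Over all protein-coding genes the medians were 0.163 (451 genes), 2.39 (1225) and 3.89 (12441). SDHA, at 0.352 FPKM from 41 reads, had no overlap on either strand, and its pseudogenes SDHAP4 and SDHAP1 had 325 and 277 reads. Overlap was taken from GENCODE 29, since the annotation used for counting is not given in the sources used here, and its part in these values was not tested.

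The genes that overlap them were not high either. For 15 genes, these 9 and 6 others (ALDOA, EIF4A1, LDHB, ARPC1B, NUSAP1 and ASNS), the overlapping gene was looked up, and 6 of the 15 partners were listed. The partner of ALDOA was at 1.61 FPKM from 71 reads, that of NDUFA13 at 0.244, that of PSMA6 at 0.078 and that of ARPC1B at 0.0278. Those of EIF4A1 and PSMA2 were listed at 0. The remaining 9 partners were not listed and were not analysed here.

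**Figure D5:**
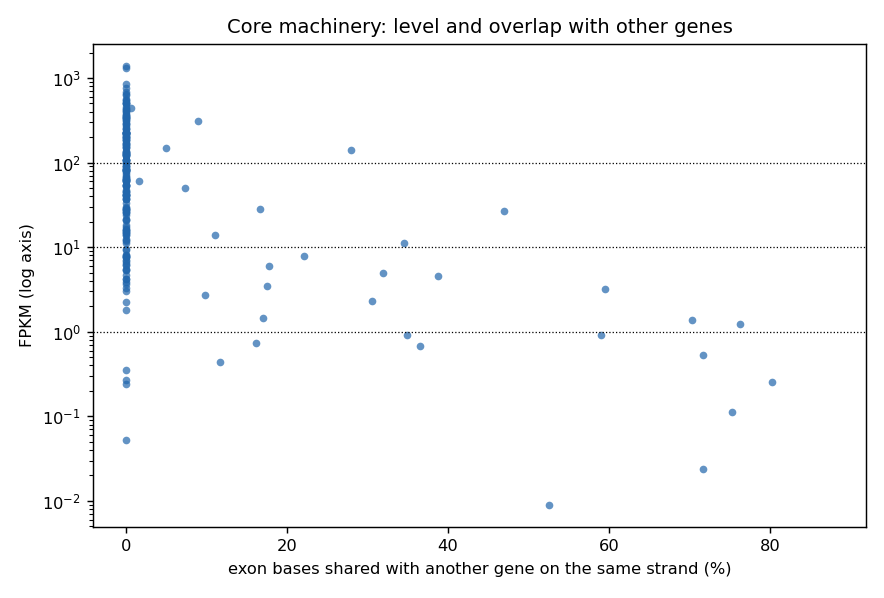
FPKM (vertical log axis) against the share of exon bases that the longest-coding transcript shares with another gene on the same strand (horizontal axis, percent) for 213 core machinery genes, with dotted lines at 1, 10 and 100 FPKM. None of the 9 genes at 50% or more exceeds 3.18 FPKM, while genes at 0% reach from 0.0527 to 1391.

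Processed pseudogenes, copies of a messenger RNA placed back into the genome, also took reads. There were 1992 of them listed, 35 at 100 FPKM or above, with 0.978% of all reads. EEF1A1P5 was at 1514 FPKM, beside 1687 for EEF1A1. For ribosomal protein genes, pseudogenes of any type, not only processed ones, were matched by symbol. Of these, 362 held 58328 reads and the 79 genes 865501, a share of 6.31% at the pseudogenes. In 6 of the 79 the pseudogenes had more reads than the gene: RPL17 (98.1% of the reads of both), RPL36A (98.0%), RPL7A (80.0%), RPS28 (73.7%), RPS10 (64.6%) and RPL26 (54.1%). RPS28P7 was at 1180 FPKM from 3293 reads and RPS28 at 41.7 from 1176. Whether those reads came from the gene or from the pseudogene was not tested.

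Abundant genes were short. Their median coding length was 775.5 bases, beside 1266 in the moderate, 1551 in the low and 1443 in the near 0 class. The median GC content of each gene's longest transcript was 51.0%, 49.1%, 46.1% and 50.6% in the same order. Across the 9348 genes at 1 FPKM or above, Spearman's rho of FPKM with coding length was -0.18, as a description across genes, which are not independent and whose FPKM is itself divided by length. In the promoters, TATAAA from 40 to 15 bases before the start was in 5.28% of abundant, 1.27% of moderate, 1.22% of low and 3.91% of near 0 genes, beside 2.30% of all promoters. CCGGAAG, the core bound by ETS factors, on either strand was in 25%, 23.5%, 21.5% and 8.60% of these classes. It was in 18.1% of the listed protein-coding genes and in 10.3% of all promoters. The AP-1 site TGACTCA on either strand was in 4.23% of abundant, 2.66% of moderate, 2.60% of low and 4.02% of near 0 genes, beside 3.10% of the listed protein-coding genes and 4.95% of all promoters.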

How the data were processed

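The library was made with a stranded mRNA kit from RNA extracted with Trizol, per the labels' protocols. The authors deposited FPKM for each Ensembl gene, per the file headers. Per the submitters' processing notes, Trimmomatic, HISAT2, HTSeq and Cufflinks were used with GRCh38; versions, annotation release and strand setting are not given in the sources used here. Gene names matched 23330 IDs, and types, positions and lengths came from GENCODE 29 (22807 IDs).

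Whole reads were worked out from FPKM: a library total and gene lengths were searched for that make every value a whole number, at a relative tolerance of 2e-09 at 1 FPKM. This gave whole reads for all 14117 protein-coding genes (100%), 87.2% of them with a length within 10% of the annotation. Recovered reads summed to 100.8% of the total over all genes; the cause of the excess was not tested. For 2830 genes with simulated reads, the search returned 99.9% exactly. The simulated lengths were equal or close to the annotated ones, so genes with lengths further off were not covered. Copies made by PCR were not told apart from separate molecules, so the intervals leave that error out.

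The design compared no groups, and no model was fitted. Gene lists (44, with 1269 genes, of which 1105 were listed) and members were chosen with earlier results of these data known. Named genes were the 25 highest, the 6 highest and 4 lowest of each list's subgroup, all members of subgroups of 12 or fewer, the highest and lowest of each family and the genes beside each bound. Genes named for overlap, pseudogenes or sequences, and a few other list and family members, were chosen after their values were seen; some genes are not reported here. Overlap was measured on the transcript with the longest coding sequence. The software was matplotlib 3.10.9, scipy 1.17.1, pandas 2.3.3 and numpy 2.4.6 under Python 3.11.15.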

Additional observations from a re-analysis of the deposited data

How the results depend on the processing

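Class sizes and shares depended on the scale and the length used. Rescaled as for TPM, over all listed genes (a factor of 3.84), 1749 genes lay at 100 or above, 5961 from 10 to under 100 and 2962 from 1 to under 10, and the first held 73.9% of the total. With the length of the longest-coding transcript, chosen after seeing the data, 759 genes lay at 100 or above with 60.8%, and the 25 highest held 14.4%. The share at 100 FPKM or above was 42.6% without mitochondrially encoded genes, 42.8% with RefSeq gene types, 47.5% with annotated exon lengths and 45.3% with exon lengths of at least 500 bases. The 25 highest held 14.3% in the first of these and 14.3% in the second. With at least 10 reads, 1677 genes lay under 1 FPKM. Leaving out genes of 50% or more same-strand overlap, also added after seeing the data, kept all 6 values near the main ones. Of 79 subgroup medians, 4 moved with annotated lengths, 53 with transcript lengths, 36 of 76 with members at 1 FPKM or more, and 79 with rescaling. No paired analysis was possible because the control is 1 library with no replicate and no groups were compared. Depth limits single genes near 0, where 1 to 3 reads decide a value.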
